A study of Mus musculus with 80 samples.

Results

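Liver was compared between 5 wild-type mice taken 7 days after a single injection of carbon tetrachloride (CCl4) and 5 wild-type mice taken 7 days after the olive oil vehicle. These 10 livers belong to a series of 80, in which 16 groups of 5 combine genotype (wild type or Adamts12-/-), treatment and time (4 h, 12 h, 24 h or 7 days). All mice were females of 8 weeks, the wild type being C57BL/6J, and each CCl4 mouse received 0.3 ml per kg of body weight, given into the peritoneum as a 3% dilution in olive oil. Whole liver RNA was sequenced as stranded mRNA libraries made from 500 ng of RNA, and the deposited table holds 14560 genes in normalized counts, of which 14558 were tested. The question put by the comparison is what remains of the acute response to CCl4 a week after the dose. Where it helps, the 7 day values are set beside the wild-type livers of 24 h and the Adamts12-/- livers of 7 days.

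CCl4 is turned into a reactive radical by the cytochrome P450 enzymes of the hepatocytes around the central vein, above all Cyp2e1, and one dose kills that zone. The lesion is then cleared by macrophages and refilled by dividing hepatocytes, and the stellate cells that lay down matrix return to rest if the injury is not repeated. Cell division is read in liver RNA from genes of the MCM helicase and its loaders, which open DNA for replication, and from genes of the spindle and of cytokinesis. Zonation is read from genes such as Glul, the glutamine synthetase of the hepatocytes next to the central vein. Bulk liver RNA sums all cells, so fewer cells of a type and less RNA per cell cannot be told apart in anything that follows.

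The 10 libraries held 23.1 to 55.2 M recovered reads, against 18.6 to 64.5 M over all 80, and each of the 10 had 14528 to 14556 genes above 0. Alb, the serum albumin of hepatocytes, had 2722100 to 4257660 normalized counts in CCl4 livers and 2988230 to 4206020 in vehicle livers. Alb, Cyp2e1, Glul, Col1a1, Lgals3 and mt-Co1 are named as textbook genes chosen after their values were seen. One CCl4 library, liver 3, stood apart from the other 9. Mitochondrial transcripts took 17.2% of its counts, against 4.28% to 6.13% in the other CCl4 livers and 4.69% to 5.25% in vehicle livers. The highest share among the other 79 libraries of the series was 12.1%. On the first principal component, which held 39.2% of the variance of the 10 livers, it scored 91.5, against -12.5 to 16.3 in the other CCl4 livers and -32.5 to -9.74 in vehicle livers. It gave the highest or the lowest value of the 10 for 58.4% of the genes tested, and each of the other livers did so for 8.06% to 31.8%. Transcript length was examined over 10241 genes, and in liver 3 short transcripts were high and long ones low. Over the 2561 genes with the shortest summed exons (at most 2864 bases) the median deviation from the other 9 livers was 0.49 on the log2 scale. Over the 2561 with the longest (at least 6982 bases) it was -0.25. The same medians of the other 9 livers ran from -0.20 to 0.12 and from -0.13 to 0.11. CCl4 livers 1, 2 and 5 had the direction of liver 3 at smaller size, and vehicle liver 2 had the opposite direction (-0.20 and 0.10). Results are therefore given with liver 3 and without it.

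**Figure D1:**
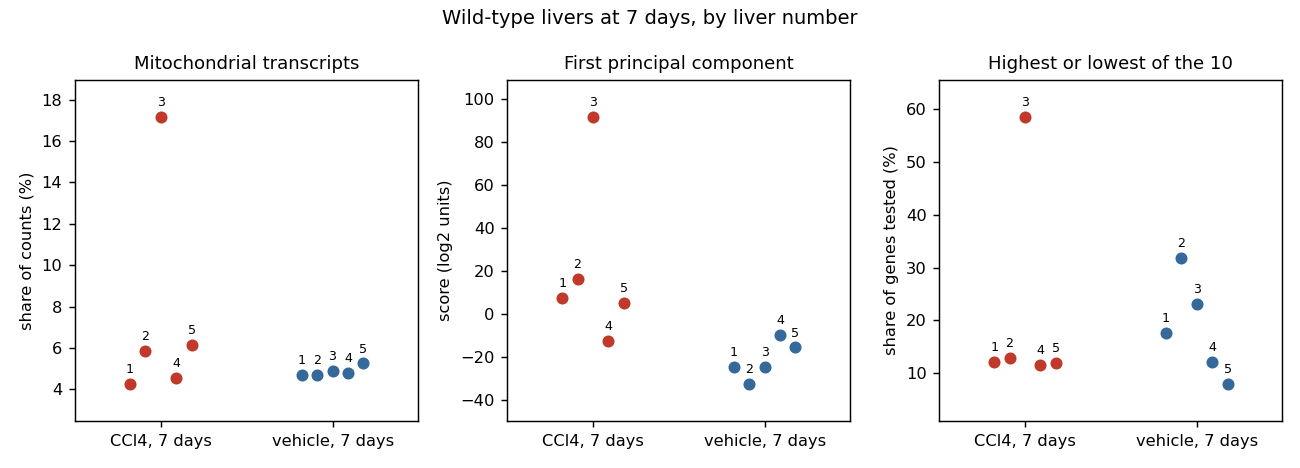
Mitochondrial share of counts (%), score on the first principal component of the 10 livers (log2 units) and share of tested genes in which a liver was the highest or lowest (%), for the 5 CCl4 livers (left) and the 5 vehicle livers (right), each point 1 liver with its number. CCl4 liver 3 lies at 17.2%, 91.5 and 58.4%, above the other 9 points in all 3 panels.

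The labels also number the mice. Numbers below 7000 belong to 4 CCl4 mice and 2 vehicle mice, and numbers from 7000 to 1 CCl4 mouse and 3 vehicle mice. What the number stands for is not given, so within-number values are printed for the genes that passed the test.

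Few genes differed at 7 days. By limma with Benjamini-Hochberg adjustment over 14558 genes, 3 genes were higher (0.0206% of those tested) and 4 were lower (0.0275%) in CCl4 livers at an adjusted p under 0.05. The higher ones were mt-Ti, Rps25-ps1 and Errfi1, and the lower ones Mastl, Ect2, Mcm4 and Hic2. Without CCl4 liver 3, no gene was called higher (0.0%) and Hic2 alone was called lower (0.00687%). At an unadjusted p under 0.05 there were 1129 higher genes (7.76%) and 1064 lower genes (7.31%), against 354 (2.43%) and 328 (2.25%) without liver 3. The values of the 5 CCl4 livers lay wholly above those of the 5 vehicle livers for 343 genes (2.36%) and wholly below them for 224 genes (1.54%). Without liver 3 the counts were 370 (2.54%) and 286 (1.96%). Leaving out a liver can only keep or add genes here, so these counts do not compare the fits with and without it. For 10277 genes (70.6%) the 95% interval of the difference lay within -1 to 1 on the log2 scale, that is, within 2-fold either way, and without liver 3 it did so for 10715 (73.6%).

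Leaving out single livers moved these counts. Without CCl4 liver 4 the fit called 323 genes higher and 227 lower, and without vehicle liver 3 it called 0 and 9. It called 2 higher and 0 lower without CCl4 liver 2, and 3 and 2 without CCl4 liver 1. The counts were 1 and 1 without vehicle liver 1, 1 and 0 without vehicle liver 2, and 5 and 2 without vehicle liver 4. A fit to the 10 livers alone called no gene in either direction, with 1193 higher and 1124 lower genes at an unadjusted p under 0.05. Each of the 7 genes was called in 13 to 16 of the 27 or 28 alternatives in which it was fitted.

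Mcm4, Ect2 and Mastl, 3 genes of cell division, were lower in CCl4 livers than in vehicle livers of the same day. Mcm4, a subunit of the replicative helicase (chr16:15623897-15637400, minus strand, GRCm38, GENCODE M21), had 140.1, 116, 64.0, 141 and 122 normalized counts in CCl4 livers, against 182, 271, 191, 372 and 218 in vehicle livers. The groups did not overlap, and the log2 difference was -1.08 ± 0.22 (SE, limma adjusted p = 0.0162). Ect2, the exchange factor that drives the cleavage furrow (chr3:27097222-27153878, minus strand), had 26.3, 56.1, 30.2, 49.7 and 96.0 counts in CCl4 livers, against 273, 207, 83.0, 231 and 165 in vehicle livers. Only CCl4 liver 5 and vehicle liver 3 overlapped, and the difference was -1.92 ± 0.40 (SE, limma adjusted p = 0.0162). Mastl, the kinase that keeps mitotic phosphatase off (chr2:23115606-23156024, minus strand), had 13.1, 7.84, 6.62, 6.99 and 21.7 counts in CCl4 livers, against 56.7, 87.3, 17.5, 47.7 and 31.1 in vehicle livers. Its difference was -1.95 ± 0.38 (SE, limma adjusted p = 0.0145), and again only CCl4 liver 5 and vehicle liver 3 overlapped.

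Without liver 3 the differences were -0.87 for Mcm4, -1.77 for Ect2 and -1.81 for Mastl on the log2 scale, none of which was called. Within mice numbered below 7000 they were -1.01, -2.59 and -2.93 in the same order, and within mice numbered from 7000, where CCl4 liver 5 stands alone, -1.02, -0.61 and -0.43. The Mcm4 difference was thus of like size in both number classes, and those of Ect2 and Mastl were nearer 0 in the second, a contrast that was not tested.

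Set beside the livers of 24 h, these genes differed in which group of 7 days stood out. Ect2 had a median of 49.7 counts in CCl4 livers and 207 in vehicle livers at 7 days, against 64.5 in CCl4 livers and 39.2 in vehicle livers at 24 h. Mki67, the proliferation antigen, had 125, 226, 97.9, 201 and 311 counts in CCl4 livers at 7 days, against 533, 795, 189, 492 and 393 in vehicle livers. Its vehicle livers of 24 h ranged from 54.9 to 122, below every vehicle liver of 7 days. Mastl had a median of 7.84 counts in CCl4 livers and 47.7 in vehicle livers at 7 days, and 16.5 and 7.52 at 24 h. Mcm4 had a median of 122 counts in CCl4 livers and 218 in vehicle livers at 7 days, and 238 and 154 at 24 h. For Mcm4 the vehicle livers of 7 days overlapped both groups of 24 h, and the CCl4 livers of 7 days were low beside most livers of 24 h. The labels give one age for all mice.

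Of 24 genes of mitosis, 1 was called (Ect2), 17 had an unadjusted p under 0.05 and a lower level, none had one and a higher level, and the median difference was -1.15 (all genes, -0.01). Over all genes, 7.31% were lower at that p. Without liver 3 the number was 7 of 24, against 2.25% of all genes, and the median -0.91. Of 25 genes of DNA replication, 1 was called (Mcm4), 13 were lower at that p and none higher, and the median was -0.50; without liver 3 it was 10 of 25 and -0.51. Within mice numbered below 7000 the median was -2.07 for mitosis genes and -0.76 for replication genes. Within mice numbered from 7000, where CCl4 liver 5 stands against 3 vehicle livers, it was 0.26 for mitosis genes, the opposite sign, and -0.16 for replication genes. The lists were drawn up with earlier results of these data known. The counts of the 24 mitosis genes summed to 841, 1668, 686, 1263 and 2267 in CCl4 livers, against 4669, 4925, 806, 4030.0 and 2541 in vehicle livers. Vehicle liver 3 was lower than 4 of the CCl4 livers, and the other 4 vehicle livers lay above all of them.

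Single members ranged widely around those medians. Anln, the furrow scaffold anillin, differed by -1.45 ± 0.37 (SE), and the spindle motor gene Kif11 by -1.51 ± 0.40 (SE). Both missed the threshold (limma adjusted p = 0.0901 for each). Among replication genes the helicase components Mcm5 (-1.32), Gins2 (-1.18) and Mcm6 (-1.14) had larger differences than Mcm4, and none of them passed the adjusted threshold. Pcna, the polymerase clamp (-0.25), Tyms, thymidylate synthase (-0.01), and Tk1, thymidine kinase (-0.07), lay near 0. Mcm10, which loads the polymerase, had a positive difference (0.39).

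**Figure D2:**
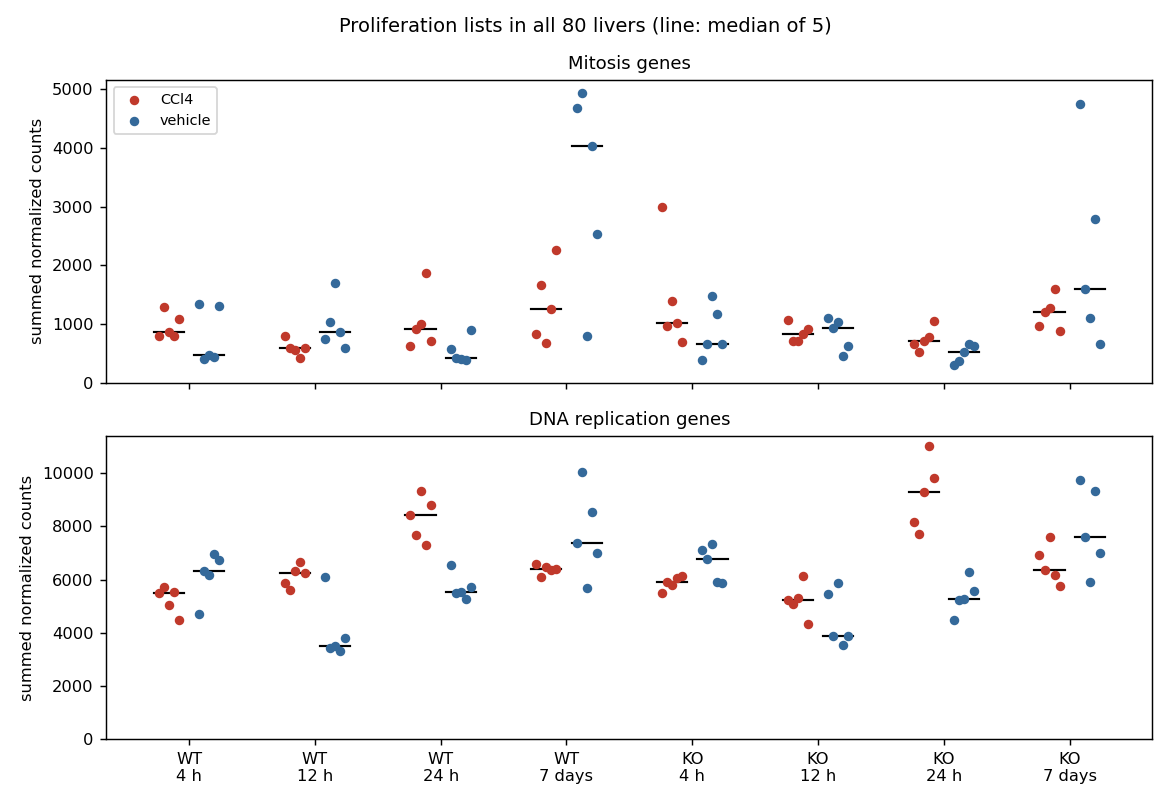
Summed normalized counts of 24 mitosis genes (top) and 25 DNA replication genes (bottom) in each of the 80 livers, by genotype (WT, wild type; KO, Adamts12-/-) and time, with CCl4 livers to the left of vehicle livers and a line at the median of 5. For mitosis genes the wild-type vehicle livers of 7 days have the highest median of the 16 groups, 4030.0, against 1263 in the CCl4 livers of that day.

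The start regions of Ect2 and Mastl are shown because both genes act in mitosis and were called lower, and promoters of mitosis genes are known to carry CCAAT boxes and the element TTTGAA. Sequences are those of RefSeq for GRCm38.p6, 250 bases before to 50 after the start, on the strand of the gene. Capitals mark matches, on either strand, to the box CCAAT (reverse ATTGG) or to the element TTTGAA. The E2F forms TTTGGCGC and then TTTCGCGC were searched in the same way.
Ect2, chr3:27153829-27154128, minus strand: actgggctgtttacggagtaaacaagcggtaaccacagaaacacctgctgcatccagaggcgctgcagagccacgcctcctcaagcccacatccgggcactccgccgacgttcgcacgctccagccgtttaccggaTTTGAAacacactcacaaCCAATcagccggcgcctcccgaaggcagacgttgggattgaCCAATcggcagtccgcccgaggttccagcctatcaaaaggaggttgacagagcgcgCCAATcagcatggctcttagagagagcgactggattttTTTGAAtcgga
Mastl, chr2:23155975-23156274, minus strand: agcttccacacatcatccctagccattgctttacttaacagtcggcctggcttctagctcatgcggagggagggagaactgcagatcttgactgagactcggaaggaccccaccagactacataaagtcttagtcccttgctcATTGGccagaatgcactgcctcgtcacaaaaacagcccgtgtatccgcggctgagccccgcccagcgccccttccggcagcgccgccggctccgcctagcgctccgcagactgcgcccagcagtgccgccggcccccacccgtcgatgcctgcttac
The Ect2 window, 1 of 2 listed for the gene, held 3 CCAAT and 2 TTTGAA matches, none overlapping, and the Mastl window held 1 CCAAT match. Of the 24 mitosis genes, 20 had an entry, with 23 windows: 18 held CCAAT (78.3%) and 18 held TTTGAA (78.3%), against 37.4% and 17.9% of all 32851 windows. Of the 25 replication genes, 20 had an entry, with 24 windows: 13 held CCAAT and 3 held TTTGAA. The E2F forms TTTGGCGC and then TTTCGCGC each stood in 5 of those 24 windows (20.8%), against 0.514% and 0.323% of all windows. The window of Hic2, also called lower, held no match to any of the 4 motifs, and Mcm4 had no entry. These matches describe the letters of the windows only.

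Hic2 was also called without liver 3. It encodes a zinc finger transcriptional repressor (chr16:17233572-17263430, plus strand) and had 32.1, 45.9, 69.2, 51.3 and 47.1 counts in CCl4 livers, against 91.7, 91.0, 123, 71.0 and 118 in vehicle livers. The groups did not overlap. The difference was -1.01 ± 0.21 (SE, limma adjusted p = 0.0162) with all livers and -1.14 ± 0.22 without liver 3 (limma adjusted p = 0.0201; 6.55e-07 to 1.00 over all alternatives). Within mice numbered below 7000 and from 7000 it was -0.92 and -1.09. In Adamts12-/- livers of 7 days the difference was 0.17.

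Errfi1 was higher in CCl4 livers. It encodes Mig6, a feedback inhibitor of the EGF receptor (chr4:150853919-150868892, plus strand), and had 33369, 16726, 18929.5, 28960.5 and 16336 counts in CCl4 livers. In vehicle livers it had 4259, 7047, 3741, 26719 and 5582 counts. Vehicle liver 4 lay among the CCl4 livers and the other 4 vehicle livers lay below all of them. The difference was 1.64 ± 0.33 (SE, limma adjusted p = 0.0162), and 1.70 without liver 3. Within mice numbered below 7000 and from 7000 it was 2.10 and 0.99. Beside the wild-type livers of 24 h, the vehicle livers of 7 days were the unlike ones here too. Their median was 5582 counts, against 18929.5 in CCl4 livers, and both wild-type groups of 24 h had higher medians (18083 with CCl4, 26807 with vehicle). In Adamts12-/- livers of 7 days the medians lay between those of the wild-type groups of that day, at 11770.5 with CCl4 and 12180 with vehicle.

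Per1, Socs2 and Atoh8 did not pass the adjusted threshold, and in each of them the 5 CCl4 livers lay apart from the 5 vehicle livers. Per1, a core clock repressor, had 738, 402, 254, 388 and 302 counts in CCl4 livers, against 56.7, 152, 33.9, 174 and 61.5 in vehicle livers. The difference was 2.27 ± 0.51 (SE, limma adjusted p = 0.0584) and 2.43 without liver 3. The labels give no hour of death, and of 20 clock genes 1 had an unadjusted p under 0.05, Per1 itself. Over all genes, 7.76% were higher at that p. Socs2, a target and feedback inhibitor of growth hormone signalling, had 238, 195, 532, 469.9 and 305 counts in CCl4 livers, against 919.5, 694, 1091, 899.8 and 881 in vehicle livers. Its difference was -1.45 ± 0.38 (SE, limma adjusted p = 0.0901) and -1.63 without liver 3. Atoh8, a basic helix-loop-helix factor, differed by 0.89 ± 0.23 (SE, limma adjusted p = 0.0901) and by 0.79 without liver 3.

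**Figure D3:**
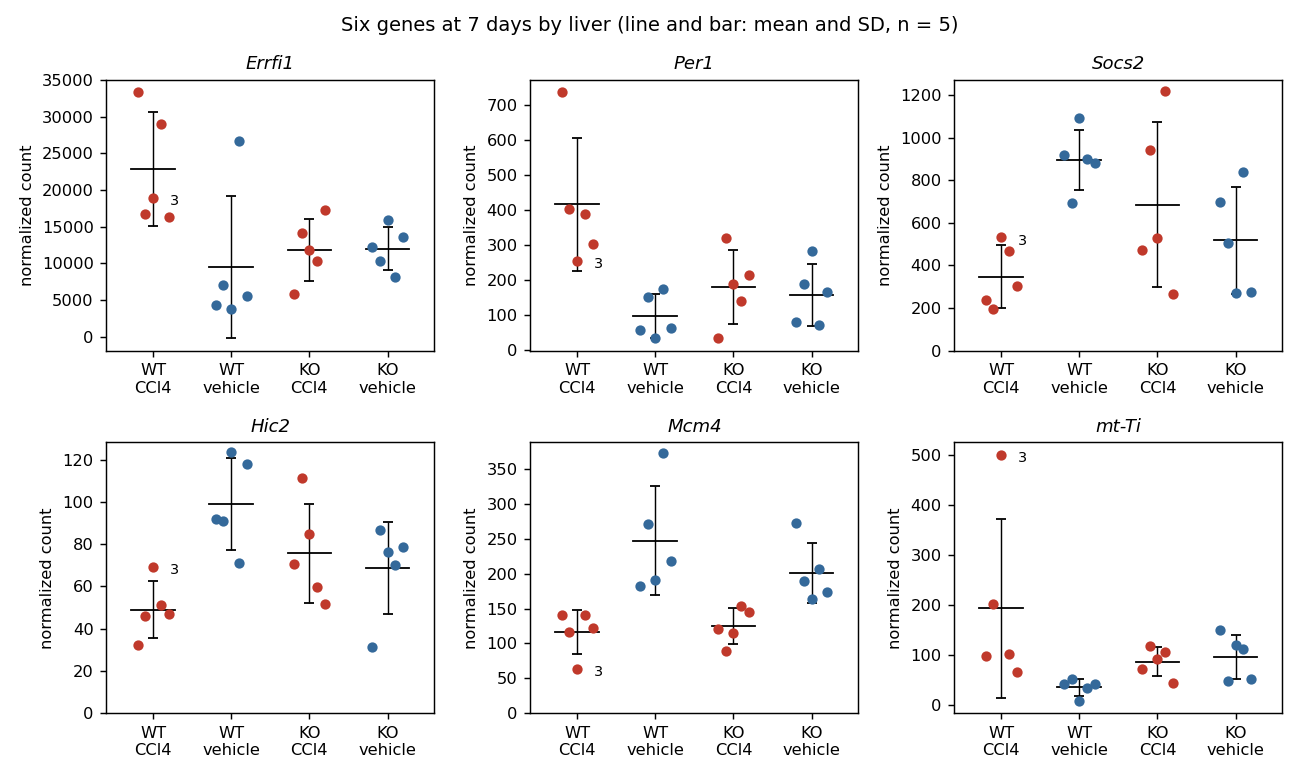
Normalized counts of 6 genes at 7 days by liver, for wild-type CCl4 and vehicle livers and Adamts12-/- CCl4 and vehicle livers from left to right, with the mean and SD of 5 as line and bar; the wild-type CCl4 liver 3 is marked 3. The CCl4 and vehicle livers do not overlap for Mcm4 in either genotype (117 ± 31.3 against 247 ± 78.1 in wild type, SD, n = 5 each), whereas Hic2, Errfi1, Per1, Socs2 and mt-Ti overlap between CCl4 and vehicle in Adamts12-/- livers.

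mt-Ti is the mitochondrial isoleucine tRNA (chrM:3706-3774, plus strand). Its sequence in GENCODE is shown because it is short and its ends are shared: its first 2 bases also belong to the end of mt-Nd1, and its last 3 to mt-Tq on the other strand.
mt-Ti: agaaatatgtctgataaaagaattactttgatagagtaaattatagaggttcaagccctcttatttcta
It had 97.8, 203, 500.3, 103 and 66.1 counts in CCl4 livers, against 42.2, 52.9, 8.74, 34.3 and 42.4 in vehicle livers, with liver 3 the highest. The difference was 2.20 ± 0.43 (SE, limma adjusted p = 0.0145) and 1.76 without liver 3, and within mice numbered below 7000 and from 7000 it was 1.90 and 1.45. The libraries select polyadenylated RNA and how reads were assigned between overlapping genes is not given in the sources used here, so the counts may include neighbouring transcripts. All 8 measured mitochondrial tRNAs and rRNAs had positive differences, 6 of them at an unadjusted p under 0.05 (median 1.10), and 3 without liver 3 (median 0.57). Over all genes, 7.76% were higher at that p, and 2.43% without liver 3. Of 13 mitochondrial protein-coding transcripts, 6 were higher at that p (median 0.61), and 3 without liver 3 (median 0.23). mt-Co1, the core subunit of cytochrome oxidase, shows the weight of that library, with 2872060 counts in CCl4 liver 3, 637035 to 896604 in the other CCl4 livers and 638209 to 724661 in vehicle livers.

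Rps25-ps1, a pseudogene of the ribosomal protein gene Rps25 (chr6:145266400-145266777), had 14.6, 9.65, 33.1, 12.4 and 16.3 counts in CCl4 livers, against 1.21, 2.79, 1.09, 6.12 and 7.06 in vehicle livers. These are low counts: in vehicle livers 1, 2 and 3 they were no more than 3 reads, which equal 3.62, 2.79 and 3.28 normalized counts there. The difference was 2.07 ± 0.40 (SE, limma adjusted p = 0.0145) and 1.81 without liver 3, and within mice numbered below 7000 and from 7000 it was 2.52 and 1.81. Its reads may come from the parent gene. Ribosomal protein genes lay in the same direction: of 78, 53 were higher at an unadjusted p under 0.05 (median 0.47), and 21 without liver 3 (median 0.29). The shares over all genes were 7.76%, and 2.43% without liver 3. Ribosomal protein genes took 1.81% of all counts in CCl4 liver 3, 0.993% to 1.32% in the other CCl4 livers and 0.933% to 1.11% in vehicle livers. Among the 10241 genes examined for length, short ones lay higher too. The median difference was 0.19 over the 2561 shortest and -0.14 over the 2561 longest (0.10 and -0.10 without liver 3). Whether transcript length has a part in the ribosomal difference was not tested.

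The rest of the 10 genes of smallest p in each direction, among those with a mean of at least 100 counts and no overlap of the 5 and 5 values, had limma adjusted p of 0.0901 to 0.0978. Higher in all 5 CCl4 livers were Rpl28, Rpl19 and Rpl37rt of the large ribosomal subunit, Mrpl43 of the mitochondrial ribosome, Higd2a, an assembly factor of the respiratory chain, and Csnk2b, the regulatory subunit of casein kinase 2. Their differences ran from 0.44 (Mrpl43) to 1.35 (Rpl37rt) and were 0.27 to 1.09 without liver 3. Lower in all 5 were Calcrl, the calcitonin-like receptor of endothelium (-0.70), Topbp1, which activates the replication checkpoint (-0.51), Paip2b, an inhibitor of translation (-0.60), Fem1c (-0.45), Tmem168 (-0.39), Avl9 (-0.71), Impg2 (-1.05) and Tmco3 (-0.47). Without liver 3 these 8 differences ranged from -0.94 to -0.36.

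Markers of the liver sinusoid were lowest in liver 3. Of 20 sinusoidal endothelial genes, none was called, 14 were lower at an unadjusted p under 0.05 and none higher, with a median of -0.76. Among all genes 7.31% were lower at that p, and 2.25% without liver 3. Without liver 3, 2 of the 20 were lower at that p, 18 had a negative difference and the median was -0.35. Stab2, the hyaluronan receptor of these cells, had 1681, 1560.2, 415, 2621 and 1424 counts in CCl4 livers, against 2657, 2557, 2664, 1977 and 2664 in vehicle livers. Kdr, the VEGF receptor 2, had 1469, 1058, 263, 2204 and 1344 counts in CCl4 livers, against 2107, 2059.6, 2440.0, 1633 and 2132 in vehicle livers. In both genes CCl4 liver 4 exceeded the lowest vehicle liver and liver 3 was the lowest of all. The 20 genes summed to 6036 counts in liver 3, 17626 to 30396.7 in the other CCl4 livers and 21433 to 31122 in vehicle livers. Other endothelial genes (8 of 20 lower, median -0.48) and Kupffer cell genes (4 of 16 lower, median -0.43) had 1 and 0 such members without liver 3.

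No marker gene of cells that enter the injured liver was called at 7 days. Of 19 monocyte and macrophage genes 1 was lower at an unadjusted p under 0.05 (median 0.07), where 13 had been called higher at 24 h (median 1.65). Among all genes 7.31% were lower at that p at 7 days, and 25.3% had been called higher at 24 h. Lgals3, the galectin of phagocytes, had 147 to 343 counts in CCl4 livers and 172 to 371 in vehicle livers. Of 21 lymphocyte genes, 19 had a positive difference (median 0.52, and 0.52 without liver 3), and 2, Ccl5 and Cd3e, had an unadjusted p under 0.05, against 7.76% of all genes and 0 of 21 without liver 3. Ccl5, a T cell chemokine, had 415 counts in CCl4 liver 3 and 28.7 to 120 in the other CCl4 livers. Cd3e, a chain of the T cell receptor complex, had 36.5, 33.2, 51.5, 11.7 and 32.6 counts in CCl4 livers, against 9.65, 17.6, 28.4, 17.1 and 15.5 in vehicle livers. Fibrosis genes had medians near 0, and 0 of 14 myofibroblast genes passed an unadjusted p of 0.05 (median 0.13). Of 24 collagen and basement membrane genes 2 were lower at that p (median -0.14), near the 7.31% of all genes. Without liver 3 it was 0 of 24, with a median of 0.05. Col1a1, the main fibrillar collagen, differed by 0.52 ± 0.61 (SE).

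Hepatocyte genes that were low at 24 h had small differences at 7 days. Of 20 pericentral genes, 14 had been called lower at 24 h (median -1.31), and at 7 days the median was -0.07. The 7 day difference was negative for 17 of the 20, and for 14 without liver 3. Single differences ran from -0.85 to 0.95. Among all genes 23.9% had been called lower at 24 h. Cyp2e1 had 136209, 193952, 96228, 137014 and 130226 counts in CCl4 livers, against 208154, 112401, 158323, 173508 and 147865 in vehicle livers. Glul had 24330.1 to 30719 counts in CCl4 livers, against 40270.3, 19198, 41379.8, 34774 and 38666 in vehicle livers. Vehicle liver 2 lay below all CCl4 livers, and the other vehicle livers lay above all of them. Slc1a2, a glutamate transporter of the same zone, did not overlap, with 2505 to 3885 counts in CCl4 livers and 4412 to 7236 in vehicle livers. Its difference was -0.85 ± 0.40 (SE, limma adjusted p = 0.300), and -0.91 without liver 3. Of 18 periportal genes the median was 0.10, of 19 bile acid genes -0.21, of 20 cholesterol synthesis genes 0.25, of 20 fatty acid oxidation genes -0.06, and of 20 nuclear respiratory chain genes 0.08. None of these lists had a called member.

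Of 20 genes of the growth hormone axis, 3 were lower at an unadjusted p under 0.05 and 1 higher, counts near the shares over all genes (7.31% and 7.76%), with a median of -0.40 (-0.51, with 2 lower and 0 higher, without liver 3). Besides Socs2, the lower ones were 2 cytochromes P450 of female mouse liver. Cyp3a44 had 344, 144, 825, 1139 and 1366 counts in CCl4 livers, against 2430.4, 1203, 3357, 3108 and 2846 in vehicle livers. Cyp3a41a had 1163, 1.81, 233, 3709 and 1459 counts in CCl4 livers, against 6319.7, 1776, 4590.5, 3111 and 4151 in vehicle livers. Mup20, a urinary protein of male mice, was the higher one (1.48 ± 0.66, SE). Those 3 differences had limma adjusted p of 0.257 to 0.290, and near-identical Cyp3a and Mup genes can share reads.

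**Figure D4:**
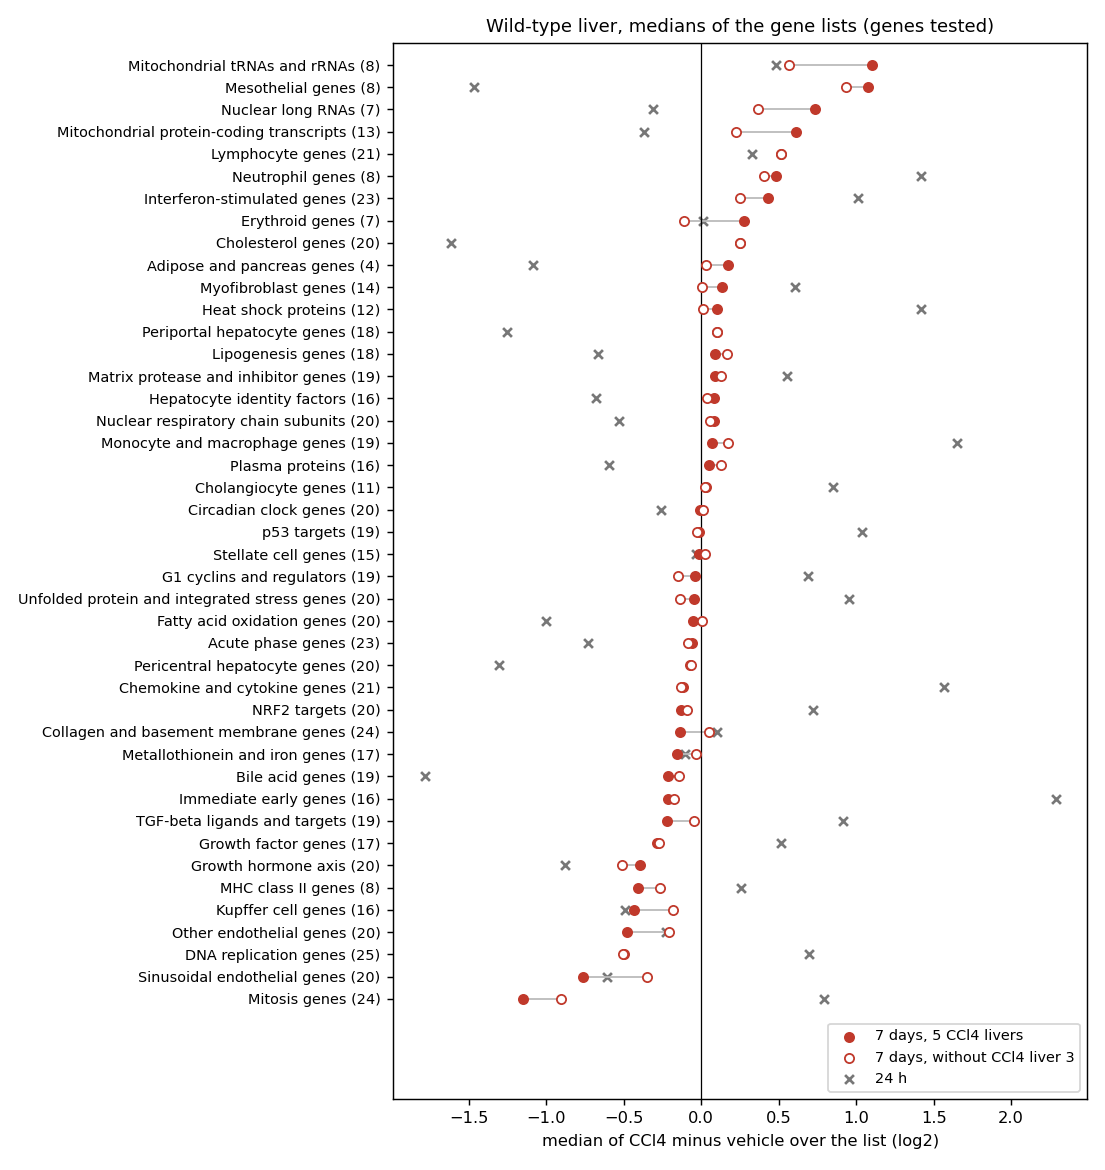
Median log2 difference, CCl4 minus vehicle, over each of 43 gene lists (genes tested in brackets) in wild-type liver: filled circles, 7 days; open circles, 7 days without CCl4 liver 3; crosses, 24 h. Mitosis genes have the lowest 7 day median (-1.15, and -0.91 without liver 3), and immediate early genes, at 2.29 after 24 h, are at -0.22.

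The genes changed at 24 h were followed to 7 days. At 24 h, 7163 genes were called (49.2%), 3680 higher and 3483 lower in CCl4 livers, and of these 1 was called at 7 days, Mastl, in the opposite direction (0.91 at 24 h and -1.95 at 7 days). The difference between the effect at 7 days and that at 24 h was itself called for 4985 genes (34.2%). Among the 7163, it was called for 4429, in each case with the sign opposite to the 24 h change, and for 4100 without liver 3. These genes were selected on the 24 h change, which the difference subtracts, so that opposite sign was favoured by the selection. For 5355 of the 7163 (74.8%) the 95% interval at 7 days lay within 2-fold either way. Of the 3206 genes with a 24 h change of at least 2-fold, the median size was 1.53 at 24 h and 0.24 at 7 days on the log2 scale. Of those, 157 were 2-fold or more away from vehicle at 7 days, 96 of them in the 24 h direction, and 103 and 63 without liver 3. The sign of the difference at 7 days matched that at 24 h in 1607 of the 3206 (50.1%). The comparisons share no library.

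The 10 largest rises and the 10 largest falls of 24 h were followed one by one, and 19 of these 20 genes had a called difference between the days. They were chosen for their 24 h change, which is part of that difference, so the choice itself favoured such calls. Nupr1, a stress-induced chromatin protein, averaged 51.2 counts in CCl4 livers and 55.5 in vehicle livers at 7 days, against 7149 and 61.0 at 24 h. Mmp12, the macrophage elastase, averaged 13.7 and 11.0 counts at 7 days, against 865 and 20.8 at 24 h, CCl4 first in each pair. Sprr1a, Prrg4, Bmp8b, Slc7a11, Elovl7, Aldh1l2, Phgdh and the glutathione transferase gene Gsta1 likewise had 7 day differences from -1.83 to 0.79, none called. Among the genes that fell at 24 h, Cyp7a1, which starts the classic route from cholesterol to bile acids, averaged 3126 counts in CCl4 livers and 2208 in vehicle livers at 7 days, and 169 and 9891 at 24 h. Cyp8b1, which sets the cholic acid share, averaged 15048.5 in CCl4 livers and 10289.3 in vehicle livers at 7 days, and 458 and 15145 at 24 h. Sult3a1, a sulfotransferase of female liver, was the one without a called difference between the days (3.80 ± 1.66, SE, limma adjusted p = 0.0678); it averaged 825 counts in CCl4 livers and 2253 in vehicle livers at 7 days.

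Beyond these, the differences between the days with the smallest p were recoveries of Bhmt, betaine methyltransferase (-4.47 at 24 h and 0.64 at 7 days), Cenpm, Prox1os, Sntg2 and the ammonium transporter Rhbg, whose 7 day differences ran from -0.05 to 0.95. In the other direction stood Ugt2b37, a glucuronosyltransferase (5.01 at 24 h and -1.05 at 7 days), Tubb5, beta-tubulin (1.96 and -0.12), Smc2 of condensin (1.14 and -0.93), Topbp1 and 2310034O05Rik.

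**Figure D5:**
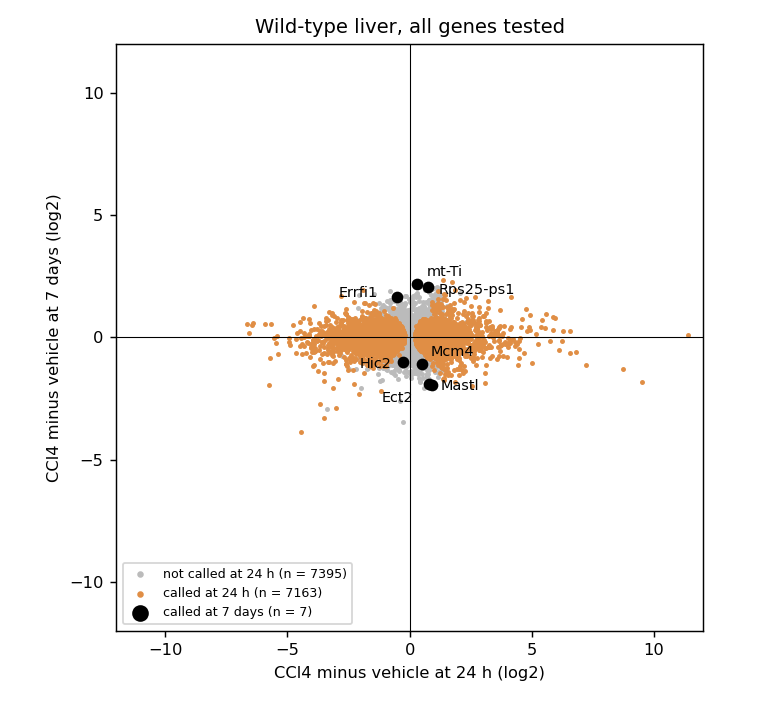
Log2 difference, CCl4 minus vehicle, at 24 h (x axis) and at 7 days (y axis) for 14558 genes of wild-type liver; orange, the 7163 genes called at 24 h; grey, the rest; black, the 7 genes called at 7 days. The cloud is wide along the 24 h axis and narrow along the 7 day axis.

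Adamts12, the gene deleted in the other genotype, encodes a secreted metalloprotease. In wild-type livers of 7 days it had 14.6, 15.7, 5.89, 28.7 and 32.6 counts with CCl4, against 21.7, 35.3, 14.2, 12.2 and 8.48 with vehicle (0.04 ± 0.45, SE). Its wild-type mean at 24 h was 58.1 counts with CCl4 and 16.9 with vehicle. In Adamts12-/- livers of 7 days it had 3.87 to 12.0 counts with CCl4 and 3.32 to 9.41 with vehicle. The reads left in Adamts12-/- livers may lie outside the deleted part, and the table gives genes, not exons.

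The 7 day effect of CCl4 was tested against that in Adamts12-/- livers, where 25 genes were called higher (0.172%) and 30 lower (0.206%). The difference between the genotypes was called for 1 gene (0.00687%), and 1398 (9.6%) had an unadjusted p under 0.05. That gene was Zfp429, a zinc finger protein (chr13:67387905-67399819), with a CCl4 difference of 2.79 in Adamts12-/- livers and -0.30 in wild-type livers (difference 3.09 ± 0.51, SE, limma adjusted p = 0.00111). In Adamts12-/- livers it had 52.2, 63.1, 44.4, 71.8 and 53.9 counts with CCl4, against 42.5, 3.76, 4.99, 3.70 and 5.82 with vehicle. In wild-type livers it had 42.3 to 63.4 counts with CCl4 and 49.5 to 78.7 with vehicle, so the 4 low vehicle livers of Adamts12-/- mice carry the difference. Of the genes called in wild type, mt-Ti (difference -2.28), Hic2 (1.18) and Errfi1 (-1.72) had the smallest genotype p, and each missed the adjusted threshold (limma adjusted p = 0.400 for Hic2 and 0.401 for the other two). The list medians in Adamts12-/- livers were -0.49 for mitosis genes, -0.41 for replication genes and 0.06 for sinusoidal endothelial genes.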

How the data were processed

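Liver RNA of 80 mice in 16 groups was sequenced, and 5 CCl4 and 5 vehicle livers of 7 days are compared here. Per the submitters' processing notes, the authors used STAR, HTSeq and DESeq2 with the build GRCm38; versions and the strand setting of the counting are not given in the sources used here. The deposited values are a signal of gene counts divided by library size factors; every library's values came out as whole multiples of 1 read (within 0.01), which gave the reads per library. limma 3.58.1 in R 4.3.3 was fitted to log2(value + 1) over 16 group means and all 80 libraries, so that fold changes of low genes are understated. The test took in genes that reached 10 normalized counts in 5 or more libraries and was two-sided with Benjamini-Hochberg adjustment, with genes called at an adjusted p under 0.05; intervals are 95%. The fits were tested on simulated data. Coordinates are those of GENCODE M21 on GRCm38, which matched 14550 of 14560 genes by ID. No 2 libraries agreed within sampling noise. The p-values use the spread between mice within groups, pooled over all 80 libraries (median residual SD 0.365, and 0.293 for the 10 livers alone). That pool includes Adamts12-/- CCl4 liver 5 of 12 h, with median correlations of 0.971 with wild-type vehicle and 0.911 with CCl4 livers of 24 h. Adamts12-/- vehicle liver 1 of 12 h had 0.885 and 0.963. The fit without the knockout libraries of 12 h leaves both out.

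Named were all called genes; in each direction the 10 genes of smallest p with a mean of at least 100 counts and groups that did not overlap; up to 4 members of each of 43 lists, with members of the replication, mitosis and sinusoidal lists; the 10 largest rises and falls at 24 h; 5 genes in each direction for the difference between days; genes called between genotypes; and Adamts12; a few genes that the rule takes in are not reported here. Members and lists were chosen with earlier results of these data known. Alternatives covered the pseudocount, the filter, the scaling, the libraries fitted, mouse numbers, library weights, a replicate block and each liver left out. Same-numbered CCl4 and vehicle livers did not pair.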

Additional observations from a re-analysis of the deposited data

Results flagged for a closer look

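Dixon's test was run on 86 sets of 5 values, and 8 had a highest or lowest value set apart from the rest. Chance alone sets apart about 1 in 20 when sets are independent and not chosen by their values. Here genes had been named for their values in these livers, and the same livers enter many sets. That rate is therefore no yardstick for the 8. Of the 8, 7 were CCl4 liver 3. That liver had 16239 normalized counts of Rpl28 (5596 to 7639 in the other CCl4 livers), 7197 of Rpl19 (3315 to 4345) and 33.1 of Rps25-ps1 (9.65 to 16.3). It had 1852 counts of Mrpl43 (980.2 to 1064) and 3187 of Higd2a (1688 to 1954). Its mitochondrial share was 17.2% (4.28% to 6.13%) and its score on the first principal component 91.5 (-12.5 to 16.3). The remaining one was vehicle liver 4, with 26719 counts of Errfi1, against 3741 to 7047 in the other vehicle livers.

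The CCl4 effect at 7 days differed between genotypes for Zfp429, by 3.09 on the log2 scale (Adamts12-/- minus wild type). The effect in wild type differed between 7 days and 24 h for 19 of the 20 genes followed from 24 h. These 20 were chosen for the 24 h change that this difference contains. For those that rose at 24 h the difference, 7 days minus 24 h on the log2 scale, was -11.31 for Gsta1, -11.30 for Sprr1a, -7.39 for Prrg4, -7.20 for Bmp8b and -6.64 for Aldh1l2. It was -6.37 for Nupr1, -6.31 for Slc7a11, -6.00 for Elovl7, -5.59 for Mmp12 and -5.14 for Phgdh. For those that fell at 24 h it was 7.20 for Cpsf4l, 6.99 for Sult2a7, 6.95 for Cyp7a1, 6.45 for Cyp8b1 and 5.48 for Upp2. It was 4.86 for Slc1a2, 4.71 for Rfx4, 4.69 for Ptk6 and 4.16 for Lrtm1.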

How the results depend on the processing

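No gene called at 7 days changed sign under any alternative run, but counts of called genes and list medians moved. In mice numbered from 7000 the median turned sign for 11 of 43 lists, among them mitosis genes (0.26 against -1.15), MHC class II genes (0.29 against -0.41) and collagen genes (0.49 against -0.14); in mice numbered below 7000, with library weights, or without vehicle liver 4 it turned for 8, 8 and 9 lists. Against 3 genes higher and 4 lower, the counts were 5 and 6 with a pseudocount of 8, 1 and 1 with a mean of at least 100 counts, 10 and 8 after quantile normalization, 6 and 5 with the 40 wild-type libraries, and 6 and 5 without the knockout libraries of 12 h. They were 1 and 1 with the mouse number class as a covariate, 5 and 12 in mice numbered below 7000, and 167 and 136 with library weights. In mice numbered from 7000 limma called 0 and 0 (110 and 96 at an unadjusted p under 0.05), in the 10 livers alone 0 and 0 (1193 and 1124), and in the 20 livers of 7 days 0 and 0 (1338 and 1216). Settings added after seeing the data, all with CCl4 liver 3 left out, gave 0 and 1 for the 40 wild-type libraries and 0 and 0 for the covariate, the 10 livers and the 20 livers. Leaving out each liver in turn gave 0 to 323 higher and 0 to 227 lower genes, 4295 to 5031 genes for 7 days minus 24 h and 1 to 3 between genotypes. For 7 days minus 24 h (4985 genes) the count was 2256 with the covariate (1863 without liver 3), 3305 and 262 in mice numbered below and from 7000, and 7800 with library weights. Between genotypes (1 gene) it was 0 with a mean of at least 100 counts, 0 in the 20 livers with or without liver 3, 8 and 0 in mice numbered below and from 7000, and 445 with library weights. The settings of mice numbered below or from 7000 restricted only the wild-type livers of 7 days. The causes were not tested. The replicate block gave 4 higher and 4 lower genes, 4947 for 7 days minus 24 h and 1 between genotypes; same-numbered livers had deviation correlations of -0.22 to 0.12 and 0 of 5 lay closest to its own number, so the numbers share only a label. Count tests on the recovered reads were not run. Depths of 23.1 to 55.2 M reads limit the genes of low counts most.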

Other observations

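Mesothelial genes, which mark the capsule of the liver, all had positive differences at 7 days: 8 of 8, with a median of 1.08 (0.94 without CCl4 liver 3) and none called, against a median of -1.47 at 24 h. Only 1 of the 8 had an unadjusted p under 0.05, and none had a mean of at least 100 counts. Their summed counts overlapped, at 444 to 1455 in CCl4 livers and 130 to 735 in vehicle livers. With the mouse number class as a covariate the median was 0.74. Interferon-stimulated genes had a median of 0.43 (0.25 without liver 3), with 4 of 23 higher at an unadjusted p under 0.05 (1 without liver 3) and none lower. Among all genes 7.76% were higher at that p, and 2.43% without liver 3. Of 7 long RNAs kept in the nucleus, 3 were higher at that p (median 0.74), and 0 without liver 3 (median 0.36). Of 19 p53 targets, 11 had been called higher at 24 h (median 1.04), against 25.3% of all genes. The median of the p53 targets at 7 days was -0.01. Cdkn1a, the p21 inhibitor of cyclin-dependent kinases, differed by 1.16 at 7 days and by 1.23 without liver 3, and the CCl4 livers did not overlap the vehicle livers, but the adjusted threshold was missed (limma adjusted p = 0.192).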
